A study of Equus caballus with 25 samples.

Results

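TNFRSF10A, FAS, RELT and CASP10 are 4 genes of the death receptor pathway. Of the 7238 equine Ensembl transcripts on the array, 1865 are named in the study's lists of changed transcripts, and 6 of these are taken here. Further transcripts of these genes may be on the array without a name. These 6 were taken by transcript identifier: ENSECAT00000026410 and ENSECAT00000026397 for TNFRSF10A, ENSECAT00000014505 and ENSECAT00000014464 for FAS, ENSECAT00000007605 for RELT and ENSECAT00000026075 for CASP10. RNA came from the cells of bronchoalveolar lavage (BAL), the fluid washed out of the bronchi during endoscopy, of 25 client-owned horses, with 1 horse per array. The labels give the diagnosis as Control for 7 horses (CTRL), IAD for 10 horses (mild equine asthma, MEA) and RAO for 8 horses (severe equine asthma, SEA). The CTRL horses were clinically healthy and all standardbred, whereas the MEA and SEA groups held standardbred and saddle horses sampled when they were presented as cases. Both sexes were present in each group, the MEA horses were of the age of the CTRL horses and the SEA horses were older, so breed, and in SEA also age, cannot be told apart from the disease. The MEA group had been restricted to the neutrophilic form of the disease.

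Death receptors are members of the TNF receptor superfamily that carry a death domain in their cytoplasmic part. After the ligand binds, the adaptor FADD is recruited, initiator caspases gather on it and activate each other, and the executioner caspases that follow take the cell apart. In inflamed airways, the pathway is best known for controlling how long neutrophils and lymphocytes live. TNFRSF10A is a receptor of TRAIL, and FAS is the receptor of the FAS ligand. RELT is a receptor of the same superfamily that lacks a death domain, and CASP10 is an initiator caspase recruited by FADD, not a receptor. The name death receptor therefore holds in the strict sense for TNFRSF10A and FAS.

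Each transcript was measured by a 60-base probe, spotted 2 times on each array. The probes are shown because they decide what agreement between the paired transcripts can mean. They are written 5′ to 3′ as the array design gives them, and capitals mark the longest run of bases that both probes of a gene share.
TNFRSF10A ENSECAT00000026410: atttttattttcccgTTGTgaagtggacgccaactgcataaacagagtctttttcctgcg
TNFRSF10A ENSECAT00000026397: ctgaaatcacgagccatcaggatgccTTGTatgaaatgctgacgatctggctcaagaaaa
FAS ENSECAT00000014505: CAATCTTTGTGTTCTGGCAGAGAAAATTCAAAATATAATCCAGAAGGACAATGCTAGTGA
FAS ENSECAT00000014464: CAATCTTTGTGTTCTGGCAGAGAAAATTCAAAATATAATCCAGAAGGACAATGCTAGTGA
RELT ENSECAT00000007605: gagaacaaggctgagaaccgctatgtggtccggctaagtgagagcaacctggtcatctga
CASP10 ENSECAT00000026075: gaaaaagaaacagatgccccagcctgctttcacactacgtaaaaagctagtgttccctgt

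The probes of TNFRSF10A were different sequences whose longest shared run was 4 bases. Both FAS transcripts carried the same 60 bases, so that FAS was measured by 1 sequence on 4 spots, and its pair can show only how well spots repeat. No member had a run of 20 bases in common with the probe of another transcript, apart from the FAS pair. Sharing was not peculiar to FAS, since the 7238 transcripts had 6693 distinct sequences. Guanine and cytosine made up 35% of the FAS probe, 41.7% and 45% of those of TNFRSF10A (ENSECAT00000026410 and ENSECAT00000026397), 53.3% of that of RELT and 45% of that of CASP10. A probe's brightness depends on its sequence, and levels are therefore compared between horses and not between probes.

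Between 58.2% and 90.8% of an array's spots were well above background, with medians of 77.7% in CTRL, 74% in MEA and 72.7% in SEA. Arrays were brought to one scale by cyclic loess, and 4930 transcripts, all 6 members among them, passed the filter on low intensities. A transcript was called when its adjusted p in limma was below 0.1 and its groups differed at least 1.5-fold. The level of a transcript is given as normalized log2 intensity and a change as a difference of such levels, so that 1 is a doubling. With RNA from a mixed cell population, more cells of a type and more RNA per cell cannot be told apart. A pair of arrays stood apart from their groups in the mean log2 intensity of 10 neutrophil marker transcripts: SEA horse 1, at 8.54, was below all other SEA horses (10.94 to 12.80), and MEA horse 3, at 13.03, was the highest of all 25 arrays. SEA horse 1 thus lay within the range of the CTRL horses (8.07 to 10.96), and MEA horse 3 above every horse of the other groups. Both levels went against the smears, on which neutrophils were the main cell type in SEA horse 1 and a minority in MEA horse 3. In the mean of 12 airway epithelial transcripts, SEA horse 1 was the lowest array, at 4.26, below the CTRL range of 8.12 to 9.87. Whether the arrays labelled SEA 1 and MEA 3 belong to these horses was not tested. Without both arrays, an alternative chosen after the data were seen, 716 transcripts instead of 101 were called between SEA and MEA, 1668 instead of 1601 in SEA and 415 instead of 480 in MEA. Of the members, the 5 calls in SEA and the single call between the diseases remained, and the CASP10 call in MEA was lost.

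In SEA, both transcripts of TNFRSF10A, both of FAS and that of RELT rose, and CASP10 did not pass the test. In MEA, both transcripts of TNFRSF10A, both of FAS and that of CASP10 rose, and RELT did not pass the test. RELT was also the one member called between the diseases, with a level 3.25 times as high in SEA as in MEA, a call that was lost with slide, scan date or replicate number as a block and without any one of 10 horses. By transcript, 5 of the 6 members were called higher in SEA, where 15.9% of all transcripts were called higher and 32.5% were called in either direction. Likewise 5 of 6 were called higher in MEA, where those shares were 3.23% and 9.74%. Between SEA and MEA, 1 of 6 was called higher, with shares of 1.32% and 2.05%. The median difference of the 6 members was 1.19 for SEA against CTRL and 1.23 for MEA against CTRL, beside medians of -0.01 and 0.03 over all transcripts. The study had named all 4 genes as changed in these same horses, so the counts are no independent evidence of a direction. They also take the single FAS sequence as 2 members and include TNFRSF10A ENSECAT00000026410, which reached the filter limit in no CTRL horse and passed through the diseased groups. Without that transcript and with FAS counted once, 3 of 4 sequences were called higher in SEA (median difference 1.19), 3 of 4 in MEA (0.94) and 1 of 4 between the diseases.

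**Figure D1:**
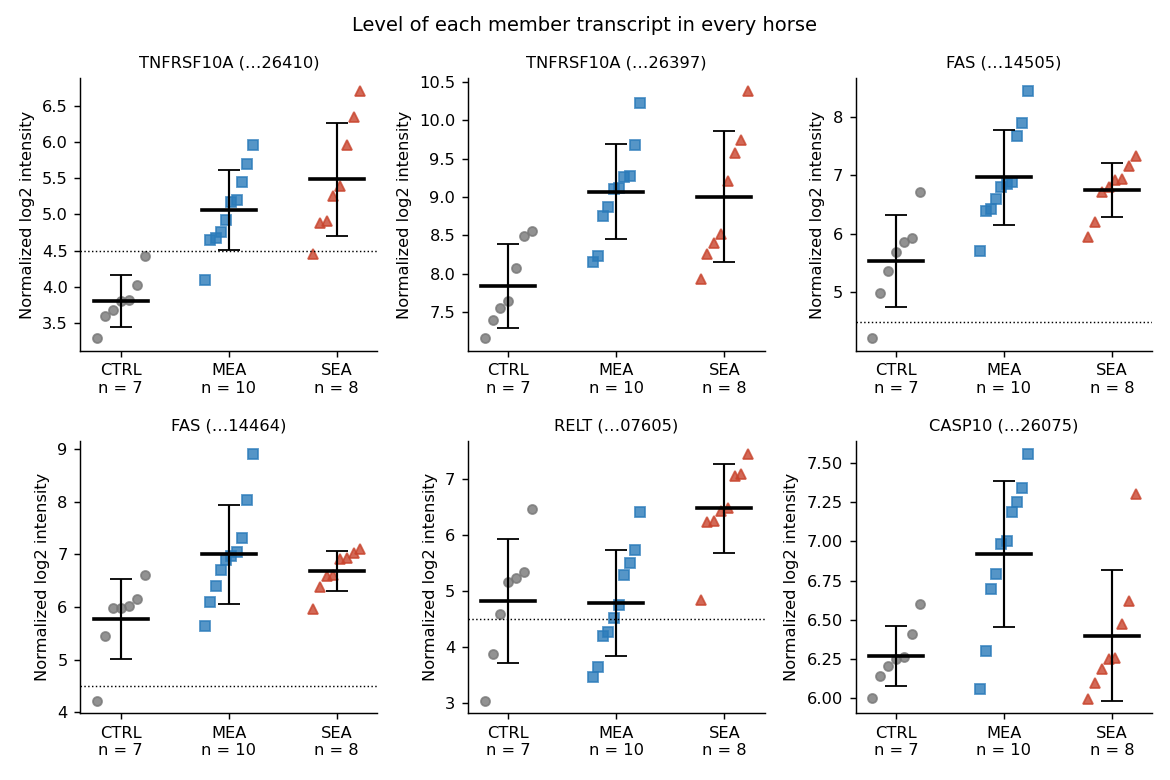
Normalized log2 intensity (vertical axes) of each member transcript in every horse, by group (horizontal axes), with the mean and SD in black and the filter limit of 4.5 as a dotted line where it lies within the range. TNFRSF10A ENSECAT00000026410 is below 4.5 in all 7 CTRL horses, RELT is high in SEA except in 1 horse at 4.85, and CASP10 is high in most MEA horses.

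TNFRSF10A ENSECAT00000026410 lay between 3.29 and 4.42 in CTRL (median 3.81), between 4.09 and 5.96 in MEA (median 5.05) and between 4.45 and 6.71 in SEA (median 5.32). Every SEA horse was above every CTRL horse, which was true of 1.52% of all transcripts tested, and 9 of 10 MEA horses were above the highest CTRL horse. The difference was 1.68 ± 0.31 (SE, adjusted p = 0.00481 by limma) in SEA and 1.26 ± 0.24 (adjusted p = 0.0181) in MEA. All 7 CTRL horses were below the limit of 4.5 and 9 MEA and 7 SEA horses were above it, so this transcript passed the filter only through the diseased groups, its differences carry that selection, and nothing is read from the share of transcripts without overlap. It was still well above background in 6 of 7 CTRL horses.

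TNFRSF10A ENSECAT00000026397 was a bright probe in all horses. It ranged from 7.16 to 8.55 in CTRL (median 7.64), from 8.16 to 10.23 in MEA (median 9.11) and from 7.93 to 10.38 in SEA (median 8.86). The groups overlapped, with 8 of 10 MEA and 4 of 8 SEA horses above the highest CTRL horse. The difference was 1.16 ± 0.36 in SEA (adjusted p = 0.0278) and 1.23 ± 0.28 in MEA (adjusted p = 0.0243). MEA horse 7 was the lowest of its group and SEA horse 5 the lowest of its own for both transcripts, and SEA horse 2 was the highest SEA horse for both.

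FAS ENSECAT00000014505 lay between 4.22 and 6.72 in CTRL (median 5.69), between 5.70 and 8.44 in MEA (median 6.82) and between 5.95 and 7.34 in SEA (median 6.86). The second set of FAS spots, ENSECAT00000014464, gave 4.22 to 6.61 (median 5.98), 5.64 to 8.91 (median 6.92) and 5.96 to 7.10 (median 6.76) in the same order. The CTRL horses overlapped with both diseases, CTRL horse 1 was by far the lowest of the 25 and MEA horse 3 the highest. FAS rose by 1.21 ± 0.32 (adjusted p = 0.0163) and 0.92 ± 0.30 (adjusted p = 0.0338) in SEA for the respective sets of spots. In MEA, the rises were 1.43 ± 0.37 (adjusted p = 0.0374) and 1.23 ± 0.40 (adjusted p = 0.0824). SEA horses varied less than MEA horses in FAS, with SDs of 0.46 and 0.38 against 0.81 and 0.94, a difference in spread that was not tested.

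Neither gene was called between SEA and MEA. For TNFRSF10A, the difference of SEA minus MEA was 0.43 (95% interval from -0.21 to 1.07) for ENSECAT00000026410 and -0.07 (from -0.76 to 0.63) for ENSECAT00000026397. For FAS, it was -0.22 (from -0.87 to 0.44) and -0.31 (from -1.02 to 0.40). Differences of up to a doubling lie within some of these intervals, so that equal levels in the diseases are not shown. The order of levels was thus CTRL below both diseases, with SEA and MEA not separated beyond their spread.

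RELT, whose level in CTRL and MEA was close to the filter limit, behaved differently. It ranged from 3.03 to 6.47 in CTRL (median 5.17), from 3.46 to 6.41 in MEA (median 4.63) and from 4.85 to 7.46 in SEA (median 6.45). Of the 8 SEA horses, 5 were above every MEA horse and 4 above every CTRL horse, and the only SEA horse below 6 was SEA horse 1. RELT rose by 1.66 ± 0.46 in SEA against CTRL (adjusted p = 0.0186), or by 1.90 without SEA horse 1 (adjusted p = 0.00707), and was 1.70 ± 0.40 higher in SEA than in MEA (adjusted p = 0.0648). Between MEA and CTRL, the difference was -0.04 with a 95% interval from -1.01 to 0.93 (adjusted p = 0.97), which is too wide to say that the groups were alike. The order of levels was MEA and CTRL, not separated from each other, below SEA.

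The RELT difference between the diseases was near the threshold. It was not called when any one of 10 of the 18 horses was left out (SEA horses 2, 3, 5, 7 and 8, and MEA horses 2, 7, 8, 9 and 10), with adjusted p values up to 0.167 and differences of 1.56 to 1.74. With the slide as a block the difference was 1.42 (adjusted p = 0.269), and with the scan date 1.52 (adjusted p = 0.27). When SEA horse 1 and MEA horse 3 were left out together, it was 2.12 (adjusted p = 0.000997).

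CASP10 ranged from 6.0 to 6.60 in CTRL (median 6.25), from 6.06 to 7.56 in MEA (median 6.99) and from 6.0 to 7.31 in SEA (median 6.25). The CTRL horses were close together (SD 0.19), 8 of 10 MEA horses were above all of them, and only 2 of 8 SEA horses were. The rise in MEA was 0.65 ± 0.20 (adjusted p = 0.0735), and the difference of SEA minus CTRL was 0.13 ± 0.19 (95% interval from -0.28 to 0.54, adjusted p = 0.652). SEA minus MEA was -0.52 (from -0.98 to -0.06), which had an unadjusted p of 0.0288 in limma and an adjusted p of 0.196. CASP10 was thus called in MEA alone, but the test of the difference between the diseases did not pass. The CASP10 call in MEA rested on single horses, since it was lost without CTRL horse 1, 2, 4 or 6 or MEA horse 2, 3, 5, 8 or 10, with rises of 0.58 to 0.65 and adjusted p values of 0.0936 to 0.172. Without MEA horse 3, the rise of 0.58 had an adjusted p of 0.0936 and was under 1.5-fold.

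**Figure D2:**
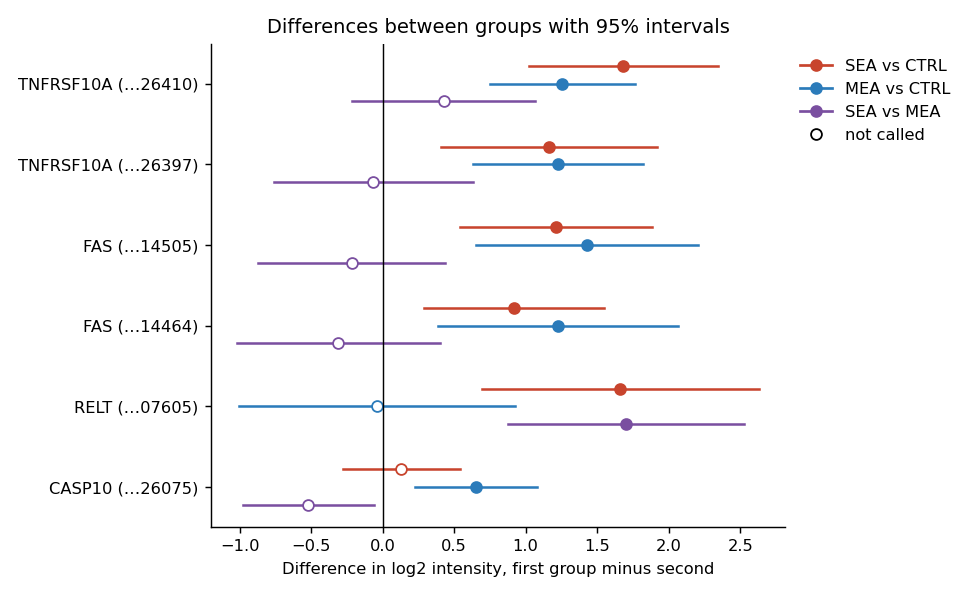
Difference in log2 intensity (horizontal axis) of each member transcript (vertical axis) between groups, with 95% intervals as lines and open circles for differences that were not called. TNFRSF10A and FAS are called to the right of 0 for both diseases, and RELT for SEA against CTRL (1.66) and against MEA (1.70). CASP10 is called for MEA alone (0.65), and its point for SEA against CTRL (0.13) is right of 0 but not called.

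The MEA calls were less secure than the SEA calls. All 5 SEA calls held when any 1 of the 15 horses was left out. In MEA, only the 2 calls of TNFRSF10A were left without CTRL horse 1, and 3 calls were left without CTRL horse 2, 4 or 6 or MEA horse 2, 5, 8 or 10, those of FAS ENSECAT00000014464 and CASP10 being lost. FAS ENSECAT00000014464 was also lost without MEA horse 4 or 9. With normexp background correction, which compresses low intensities, 2 calls were left in SEA (TNFRSF10A ENSECAT00000026397 and RELT) and 1 in MEA (TNFRSF10A ENSECAT00000026397). With the percentage of epithelial cells in the lavage as a covariate, no member remained called in MEA, although the differences of TNFRSF10A were still 1.10 and 1.04, and 0 of all 4930 transcripts were called by limma in that setting, where 613 had an unadjusted p below 0.05. The CTRL, MEA and SEA arrays were spread over 4 slides. Within slides, the differences from CTRL were between 0.51 and 2.10 for TNFRSF10A, between 0.11 and 2.55 for FAS in both diseases, and between 0.46 and 0.65 for CASP10 in MEA, all above 0. For RELT in SEA they were 2.49, 1.74 and 1.85 on slides 2, 3 and 4 and -0.33 on slide 1, whose single SEA array was that of SEA horse 1, and SEA minus MEA was 0.15, 1.18, 1.71 and 2.52 on slides 1 to 4. With the slide as a block, the differences in SEA were 1.66 and 1.09 for TNFRSF10A, 1.08 and 0.77 for FAS and 1.62 for RELT, and all 5 remained called. In MEA, both TNFRSF10A calls remained with the slide as a block (1.24 and 1.12), while FAS (1.41 and 1.16) and CASP10 (0.56) had adjusted p values of 0.102, 0.18 and 0.188.

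The paired transcripts were set against each other across horses. For FAS, which is 1 sequence on 4 spots, Pearson's r between the sets of spots was 0.915 over the 25 arrays and Spearman's rho was 0.873, each with a permutation p of 1e-05, the smallest the resamples can give. After group means were subtracted, r was 0.873 and rho 0.802 (permutation p = 1e-05 for each), and r was 0.798 (permutation p = 1e-05) without the 2 horses farthest from the median. The median distance between the sets was 0.16 and the largest was 0.97, in MEA horse 9.

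For TNFRSF10A, measured by different sequences, r was 0.805 (permutation p = 1e-05) and rho 0.753 (permutation p = 4e-05) over the 25 arrays. After group means were subtracted, r was 0.687 (permutation p = 0.00024) and rho 0.545 (permutation p = 0.00534), and r was 0.58 (permutation p = 0.00392) without the 2 horses farthest from the median. With Benjamini-Hochberg adjustment over the 10 correlations of paired probes computed, the values after subtracting group means became 0.00048 for r and 0.0107 for rho. Within CTRL, MEA and SEA, r for TNFRSF10A was 0.676, 0.625 and 0.739 (adjusted permutation p = 0.0883, 0.057 and 0.0528). Without the 2 horses farthest from each group's median, it was 0.741, 0.332 and 0.353. For FAS, r within the groups was 0.921, 0.841 and 0.97. Within slides 2, 3 and 4, r was 0.813, 0.847 and 0.813 for TNFRSF10A and 0.861, 0.991 and 0.869 for FAS. These slide values were taken without subtracting group means, so that differences between groups enter them. With group and slide means subtracted, r was 0.733 and 0.873. Slide 1, with 5 arrays, was too small for a correlation. Horses high for one TNFRSF10A probe were thus mostly high for the other, with more scatter than between repeated spots of FAS.

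Whether the paired transcripts changed to the same extent was tested on the difference between them in each horse. In TNFRSF10A, ENSECAT00000026410 minus ENSECAT00000026397 was 0.52 higher in SEA than in CTRL (exact permutation p = 0.0732, adjusted p = 0.157 over 6 tests) and 0.03 higher in MEA than in CTRL (exact permutation p = 0.897, adjusted p = 0.897). In FAS, ENSECAT00000014505 minus ENSECAT00000014464 was 0.29 higher in SEA than in CTRL (exact permutation p = 0.02, adjusted p = 0.12). None of the 6 tests passed after adjustment. The identical FAS probes gave the smallest unadjusted p of the 6, so that spots of 1 sequence can also give a small unadjusted p in these groups. Their difference of 0.29 was smaller than the 0.52 of TNFRSF10A. The sign of the TNFRSF10A difference was not settled by the data, because with normexp background correction it was -0.56 in SEA and -0.72 in MEA (adjusted p = 0.0126 by exact permutation), and without SEA horse 6 it was 0.72 in SEA (adjusted p = 0.0175 by exact permutation).

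**Figure D3:**
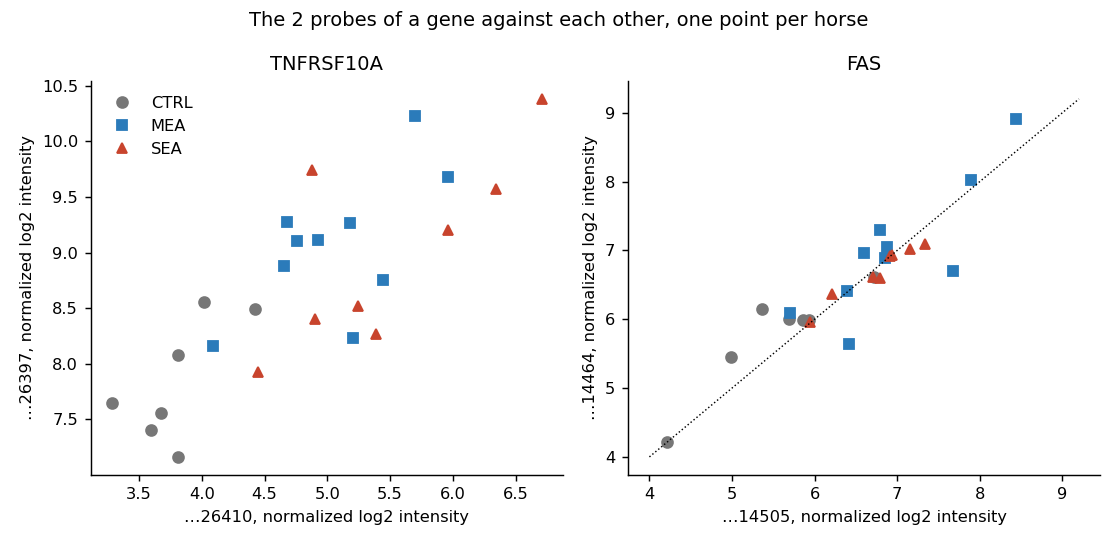
The 2 transcripts of TNFRSF10A (left) and of FAS (right), each axis giving the normalized log2 intensity of one transcript, with one point per horse and symbols by group. The FAS points follow the dotted line of equal values (r = 0.915), as the probes have the same sequence, and the TNFRSF10A points rise together with more scatter (r = 0.805).

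Among the 4 genes, with the probes of a gene averaged, the horses that were high in TNFRSF10A were also high in FAS (r = 0.825 over 25 arrays, and 0.729 after group means were subtracted). RELT varied apart from them, with r of 0.368 with TNFRSF10A, 0.192 with FAS and -0.118 with CASP10. CASP10 had r of 0.622 with FAS and 0.467 with TNFRSF10A. These are descriptions over arrays that share scaling and groups. Only 34.2% of the tested transcripts had a symbol, all from the study's lists of transcripts changed in these horses, so closer ones without a symbol may exist. Of 1678 other transcripts with a symbol, the 3 closest to TNFRSF10A across the arrays were PTPN2, a tyrosine phosphatase, ARHGAP26 and FNDC3B, with r of 0.858, 0.855 and 0.854. The closest to FAS were APAF1, the core of the apoptosome (0.859), DOCK2, an exchange factor for Rac in blood cells (0.838), and GAS7 (0.826). For RELT they were CSF2RB, the beta chain shared by the receptors of GM-CSF, IL-3 and IL-5 (0.912), CD300LB, a receptor of myeloid cells (0.903), and IL18R1, a chain of the IL-18 receptor (0.896). For CASP10 the highest values were lower, with 0.763 for CDH12, a cadherin, 0.727 for SLA2, an adaptor protein, and 0.709 for SKI_HORSE. After group means were subtracted, these 12 values lay between 0.61 and 0.877.

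Markers of the cell types in the lavage were taken from the transcripts with a symbol, all chosen by the study for a change in these same horses. Unchanged markers could not enter, so their counts are no independent evidence of a direction. Of all transcripts, 15.9% were called higher in SEA and 3.23% in MEA, and 32.5% and 9.74% in either direction. Of 10 neutrophil transcripts, 9 were called higher and 1 lower in SEA, and none was called higher and 1 lower in MEA. TREM1 stood among them with 2 transcripts of 1 probe sequence (rises of 3.595 and 3.499 in SEA), and so enters the counts, sums and means 2 times. The sum of the normalized intensities of the 10 neutrophil transcripts ranged from 5068 to 38400 in CTRL (median 11937), from 8176 to 297577 in MEA (median 12115) and from 8600 to 225445 in SEA (median 74310). The highest MEA value was that of MEA horse 3 and the lowest SEA value that of SEA horse 1, and without them the sums were 8176 to 51205 in MEA (median 10749) and 48230 to 225445 in SEA (median 84953). Of 12 airway epithelial transcripts, 11 were called lower in SEA and 7 in MEA, with sums of 9823 to 45960 in CTRL, 2833 to 29019 in MEA and 855 to 10609 in SEA. Of 6 macrophage transcripts, 3 were called higher in SEA and 2 in MEA, with sums of 35415 to 77208 in CTRL, 46749 to 108919 in MEA and 54783 to 130410 in SEA. Of 9 lymphocyte transcripts, 5 were called higher and 1 lower in SEA, and none higher and 1 lower in MEA, with sums of 3940 to 24114 in CTRL, 2931 to 12556 in MEA and 1063 to 9489 in SEA. The medians of these lymphocyte sums, 8342, 4849 and 4625, thus went down in SEA while most of its calls were upward. GZMB held 4 of the 9 transcripts, of which 1 was called higher (0.97) and 1 lower (-1.35) in SEA. The 2 brightest, both GZMB, had mean levels of 11.93 and 11.78 in CTRL against 10.59 and 10.95 in SEA. No other had a group mean above 7.94, so the sums follow mainly these 2. Averaged as log2 intensity, the list stood higher in SEA horses (7.19) than in CTRL (6.83) or MEA horses (6.56), which was not tested. No marker was below background in all horses of a group. The part of these cell types in the changes of the 4 genes was not tested.

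RELT was related to the neutrophil and to the lymphocyte markers within groups, relations looked for after the data were seen. After group means were subtracted from both, r between RELT and the mean of the neutrophil transcripts was 0.758 (permutation p = 2e-05, adjusted p = 0.00032 over 16 relations) and rho was 0.763 (permutation p = 3e-05, adjusted p = 0.00048), and r was 0.65 (permutation p = 0.00073) without the 2 horses farthest from the median. With the lymphocyte markers, r was 0.67 (permutation p = 0.00028, adjusted p = 0.00224) and rho was 0.702 (permutation p = 0.00014, adjusted p = 0.00112), and r was 0.603 (permutation p = 0.00224) without the 2 farthest horses. The difference between these correlations was not tested. Within CTRL, MEA and SEA, r was 0.734, 0.766 and 0.823 for the neutrophil markers and 0.67, 0.557 and 0.898 for the lymphocyte markers. On slides 2, 3 and 4 it was 0.856, 0.87 and 0.804 for the former and 0.411, 0.81 and 0.883 for the latter. The slide values were taken without subtracting group means, so that differences between groups enter them. With group and slide means subtracted, r was 0.756 for the neutrophil and 0.688 for the lymphocyte markers. Within SEA, RELT also had r of 0.748 with the epithelial markers and -0.618 with the macrophage markers. Without SEA horse 1 and MEA horse 3, r after group means was 0.628 for the neutrophil and 0.61 for the lymphocyte markers. Within SEA it then was 0.402 for the neutrophil, 0.715 for the lymphocyte, 0.336 for the epithelial and -0.397 for the macrophage markers, so that the neutrophil and epithelial values within SEA rested largely on SEA horse 1. SEA horse 1 had the lowest RELT and the lowest neutrophil markers of the SEA horses, and MEA horse 3 the highest of both among the MEA horses. For TNFRSF10A, FAS and CASP10, r with the neutrophil markers was 0.408, 0.409 and 0.486 with adjusted permutation p values of 0.117, 0.117 and 0.058, and rho was 0.289, 0.226 and 0.336 with adjusted values of 0.429, 0.448 and 0.323. TNFRSF10A was related to the lymphocyte markers (r = 0.517, permutation p = 0.00792, adjusted p = 0.0422, and rho = 0.551, permutation p = 0.00463, adjusted p = 0.0247), with r of 0.427 (permutation p = 0.0416) without the 2 farthest horses. The other 10 relations, to macrophage and epithelial markers and of FAS and CASP10 to lymphocyte markers, had r between -0.246 and 0.266 and did not pass. Without SEA horse 1 and MEA horse 3, r of TNFRSF10A and FAS fell to 0.22 and 0.189 with the neutrophil markers. With the macrophage markers it then rose from 0.167 and 0.15 to 0.4 and 0.439. Within MEA, r was then -0.517 and -0.493 with the neutrophil and 0.831 and 0.724 with the macrophage markers. These values were not tested, and whether neutrophil or macrophage markers were followed more closely depended on these arrays.

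**Figure D4:**
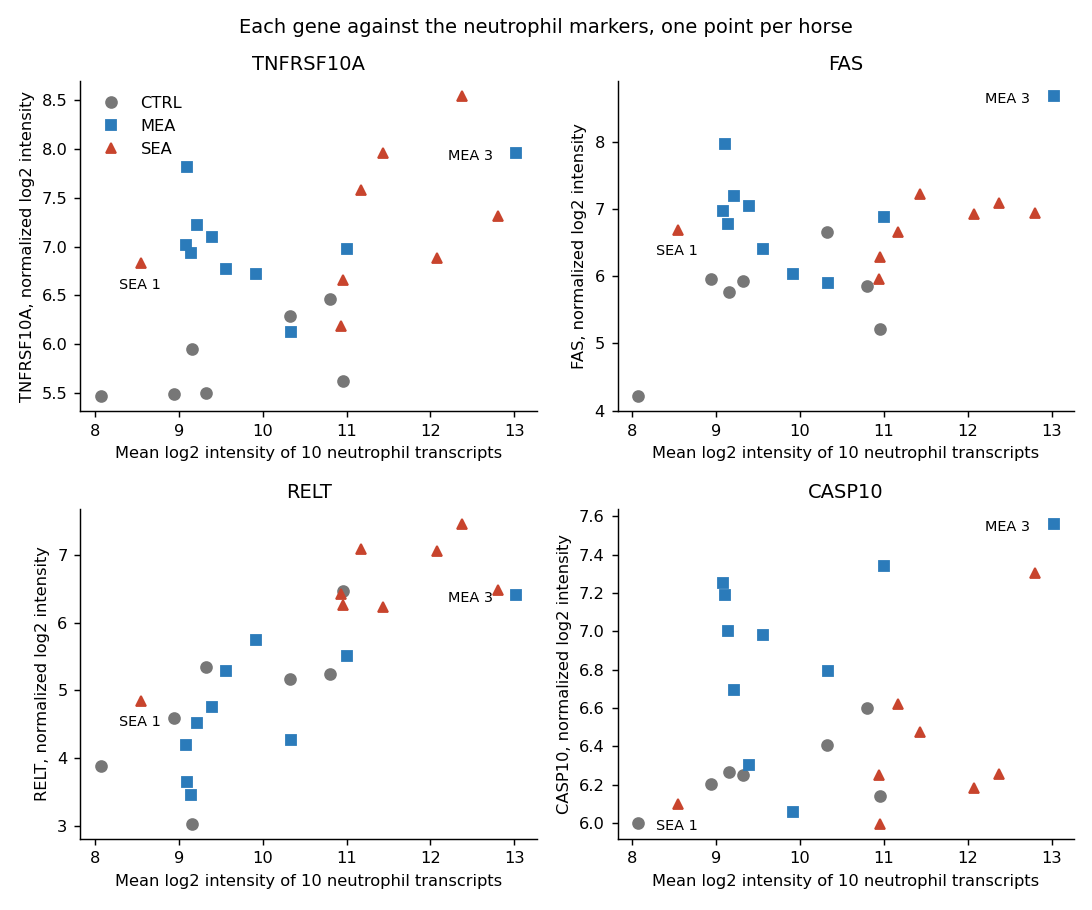
Normalized log2 intensity of each gene (vertical axes, mean of its probes) against the mean log2 intensity of 10 neutrophil transcripts (horizontal axes), with one point per horse and symbols by group. RELT rises with the neutrophil markers (r = 0.758 after group means), in SEA largely through 1 horse, and SEA horse 1 (8.54) and MEA horse 3 (13.03) are marked as the arrays that stood apart.

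The neutrophil percentage counted on the smears was also compared with the 4 genes. Within MEA and within SEA, no relation of the 4 genes to it passed, with r between -0.579 and 0.029 (adjusted permutation p = 0.973 in all 8 tests) and rho between -0.31 and 0.049 (adjusted permutation p = 0.935). The largest of these in size, CASP10 in SEA, was -0.579 (exact permutation p = 0.141) and turned to 0.32 (exact permutation p = 0.549) without the 2 horses farthest from the median percentage, so it rested on those horses. Nor did the relation of the neutrophil marker transcripts to the counted percentage pass, with r of -0.293 within MEA (permutation p = 0.447, rho = -0.188 with permutation p = 0.598) and -0.361 within SEA (exact permutation p = 0.328, rho = -0.429 with p = 0.299). The slides held too few arrays of a group for these relations to be given within them.

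The other genes of the pathway were taken by role from the transcripts that carry a symbol, 30 transcripts of 27 genes. All of them had been chosen by the study for a change in these same horses, so their counts are no independent evidence of a direction. In SEA, 20 were called higher and 7 lower (median difference 0.86, beside -0.01 over all transcripts). Of all transcripts, 15.9% were called higher there and 32.5% in either direction. In MEA, 2 were called higher and 3 lower (median 0.24, beside 0.03), where those shares were 3.23% and 9.74%. Between the diseases, 3 were called higher in SEA and none lower (median 0.57, beside -0.04), with shares of 1.32% and 2.05%. TNFRSF1A, MAP3K14 and APAF1 each stood with 2 transcripts that shared 1 probe sequence, as did FAS.

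Among the receptors, TNFRSF1B, the TNF receptor of leukocytes, rose by 2.14 ± 0.44 in SEA (adjusted p = 0.00743), and TNFRSF1A, the widely expressed TNF receptor that carries a death domain, rose by 0.76 on both of its sets of spots (adjusted p = 0.0657 and 0.0629). TNFRSF19, an orphan receptor of the superfamily, fell by 1.80 on the log2 scale in SEA and by 1.07 in MEA. CD27, a costimulatory receptor of lymphocytes, was not called. In MEA, TNFRSF1B differed from CTRL by 1.04 ± 0.44 (adjusted p = 0.173) and was not called, and no other receptor of the list was called higher. Of the ligands, TNFSF14 (LIGHT) rose by 1.81 ± 0.52 in SEA and was 1.56 ± 0.41 higher than in MEA (adjusted p = 0.0857). The equine TNF transcript, TNFA_HORSE, differed from CTRL by 0.50 in SEA and 0.49 in MEA and was not called. The ligands of TNFRSF10A and FAS were not analysed here.

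All 8 adaptor and signalling transcripts, 2 of them MAP3K14 with 1 sequence, were called higher in SEA (15.9% of all transcripts) and none in MEA (3.23% of all), where their median difference was 0.49. TNFAIP3, an inhibitor of NF-kappa B signalling, rose by 2.40 ± 0.63 in SEA and differed by 1.28 in MEA without being called, and TRAF1, an adaptor of TNF receptors, rose by 1.62 ± 0.27 in SEA. CFLAR, which blocks initiator caspases at the death receptor complex, rose by 1.76 ± 0.48 in SEA (adjusted p = 0.0176) and differed by 0.89 ± 0.46 in MEA (adjusted p = 0.263). MAP3K14, the kinase of the noncanonical NF-kappa B pathway, was 1.56 ± 0.37 and 1.59 ± 0.41 higher in SEA than in MEA on its sets of spots (adjusted p = 0.0712 and 0.0857). MAP3K14 and TNFSF14 shared with RELT the pattern of a call between the diseases. The mean levels of MAP3K14 were 3.54 and 3.4 in CTRL, 3.29 and 3.38 in MEA and 4.86 and 4.97 in SEA. Those of TNFSF14 were 3.79, 4.05 and 5.6 in the same order. Only the SEA means were above the filter limit, so the differences of SEA from both other groups may carry that selection. With the slide as a block, no transcript on the array was called between the diseases.

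Downstream of the receptors, APAF1, the scaffold that activates caspases after mitochondrial damage, rose on both sets of spots in SEA (0.87 and 1.13) and on one in MEA (0.87, adjusted p = 0.0866), the other differing by 0.84 (adjusted p = 0.119). CASP6, an executioner caspase, fell by 1.38 in SEA and by 1.31 in MEA on the log2 scale. CASP12, an inflammatory caspase, rose by 1.17 in SEA. Of the BCL2 family, the inhibitors of apoptosis BCL2, BCL2L1 and MCL1 rose in SEA by 1.33, 1.48 and 1.56. BMF, which promotes apoptosis, rose by 1.45, whereas the promoters BAD and BNIP3 fell by 1.05 and 0.78 on the log2 scale. In MEA, BAD was the only family member called and fell by 1.01. BIRC6, an inhibitor of apoptosis, rose in both diseases (0.85 and 1.06). Its mean level was 4.23 in CTRL, below the filter limit, and 5.29 in MEA and 5.08 in SEA, so its differences may carry the selection by the filter. PERP, a p53 target found in epithelial junctions, PDCD4, an inhibitor of translation, and DAPK2, a death-associated kinase, fell in SEA by 2.0, 0.90 and 1.45 on the log2 scale and were not called in MEA, and CIDEB was not called in either. Because epithelial markers fell and neutrophil markers rose in SEA, the part of the cell mixture in these changes was not tested.

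**Figure D5:**
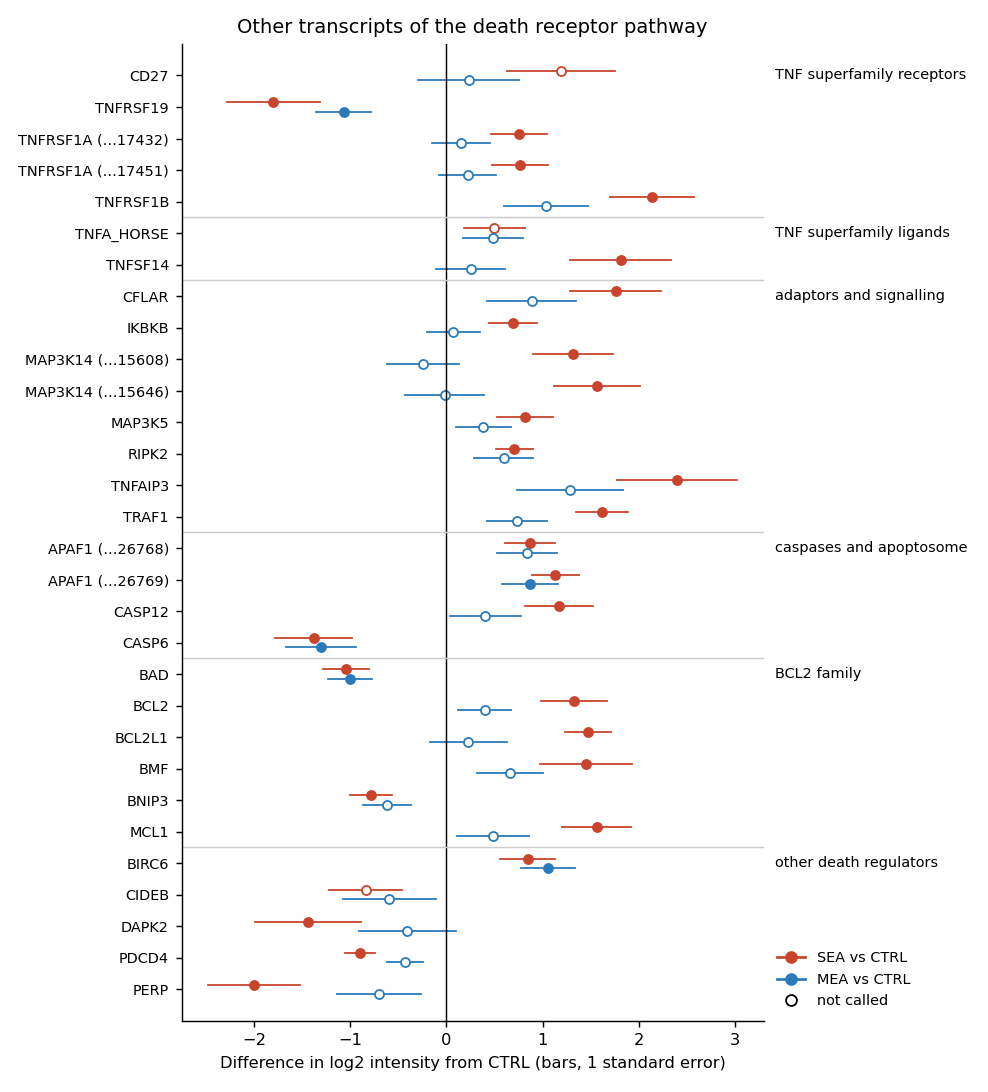
Difference in log2 intensity from CTRL (horizontal axis, with 1 standard error) of 30 transcripts of the death receptor pathway, grouped by role (vertical axis), in SEA and MEA, with open circles for differences that were not called. All 8 adaptor and signalling transcripts are called higher in SEA (15.9% of all transcripts), and 5 of the 30 transcripts are called in MEA (9.74% of all in either direction).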

How the data were processed

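BAL cell RNA of 25 horses was hybridized to one-color arrays with 7238 transcripts on 14476 spots. The authors deposited each array's spot intensity from Feature Extraction 9.5.1, corrected for background within the array, and a table of intensity values normalized by cyclic loess (R 2.11.1 per the labels). For this report, limma 3.58.1 was used in R 4.3.3. Log2 intensities were normalized by cyclic loess (span 0.7, 3 iterations; correlation of 0.999511 with the log2 of the authors' values), and spots of a probe were averaged. Transcripts below 4.5 in at least 19 arrays were left out, and lmFit and eBayes were run for each comparison on the arrays of its 2 groups, with Benjamini-Hochberg adjustment over 4930 transcripts. Limma replaced SAM, the test of the study. Single values per horse were compared by two-sided permutation tests, exact or with 100000 resamples. Functions were tested on simulated data. Arrays have no read depth, and their number limits the precision (median SE of 0.277, 0.271 and 0.274 over all transcripts for SEA against CTRL, MEA against CTRL and SEA against MEA).

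The members and lists were chosen with earlier results of these data known. The genes named are the members, the pathway and marker lists, and the 3 transcripts most like each gene. Symbols came from the study's lists of changed transcripts (1865 named), and sex and cell percentages from its table of horses. Positions in the genome are not given here. Alternatives covered scaling, filters, tests, thresholds, covariates, blocks and leaving out each horse. One transcript per probe sequence, the pair of arrays left out together, the count without the transcript below the limit in CTRL and the relations to marker lists were chosen after seeing the data.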

Additional observations from a re-analysis of the deposited data

Results flagged for a closer look

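RELT in SEA horse 1, at 4.85, lay far below the other 7 SEA horses, whose values ran from 6.24 to 7.46. It was the 1 of 18 combinations of transcript and group in which the lowest or highest horse was separated from the next by more of the group's range than Dixon's criterion allows, and chance alone marks about 1 in 20. The same horse had the lowest neutrophil marker level of the SEA horses (8.54). The part of the neutrophil level in this value was not tested.

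The change of RELT from CTRL differed between the diseases by 1.70 (SEA minus MEA, adjusted p = 0.0648 by limma), with all 8 SEA horses above the MEA mean. No other member had a difference between the diseases that passed.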

How the results depend on the processing

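The differences of TNFRSF10A, FAS and RELT in SEA and of TNFRSF10A, FAS and CASP10 in MEA kept their direction under all alternatives run, but not their size. Apart from leaving out single horses, the lowest differences in SEA were 0.34 for TNFRSF10A ENSECAT00000026410 and 0.896 for ENSECAT00000026397. For FAS ENSECAT00000014505 and ENSECAT00000014464 they were 0.458 and 0.382, and for RELT 0.585. The lowest in MEA, in the same order, were 0.276 and 0.994 for TNFRSF10A, 0.663 and 0.627 for FAS and 0.304 for CASP10. In SEA, the 5 calls held under 19 of 20 alternatives, the exception being normexp background correction with an offset of 50 (2 of 6 members, and 754 of all transcripts instead of 1601). The MEA count of 5 became 1 with normexp (118 of all transcripts instead of 480), 3 with no filter on low intensity, 3 at an adjusted p below 0.05 (208 of all), 0 with the epithelial percentage as a covariate (0 of all by limma, with 613 at an unadjusted p below 0.05), 2 when slides were blocked (171 of all) and 3 when scan dates were (216 of all), and array weights gave 929 of all. The single call between SEA and MEA became 0 with 75th percentile scaling, normexp, an exact Wilcoxon test, a limit of 0.05 on the adjusted p, and slide or scan date as a block. Against 101 of all transcripts called between SEA and MEA, the count by limma was 0, 40 and 2 with 75th percentile, quantile and normexp scaling, 25 with the Wilcoxon test, 816 with array weights, 265 with all 25 arrays in 1 fit, 2 at an adjusted p below 0.05, 188 with sex, 37 with the epithelial percentage and 166 with the share of spots above background as a covariate, 0 with the slide and 2 with the scan date as a block, and 716 without SEA horse 1 and MEA horse 3. Where the count was 0, 993 (75th percentile) and 657 (slide) had an unadjusted p below 0.05. The cause of these shifts was not tested.

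Leaving out each horse in turn gave 5 members in SEA throughout, 2 to 5 in MEA and 0 to 1 between the diseases, and 157 to 740 of all transcripts in MEA and 2 to 554 between the diseases. Values close to 0 changed sign. RELT in MEA against CTRL was -0.04 and became 0.042 with the share of spots above background as a covariate and 0.086 with the slide or the scan date as a block, and lay between -0.337 and 0.236 when a horse was left out. TNFRSF10A ENSECAT00000026397 between SEA and MEA became 0.169 without SEA horse 1 and MEA horse 3 and lay between -0.262 and 0.089 when a horse was left out.

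The first minus the second TNFRSF10A probe turned with normexp to -0.555 in SEA and -0.717 in MEA against CTRL. Leaving out a horse gave 0.43 to 0.715 in SEA against CTRL, -0.079 to 0.145 in MEA against CTRL and 0.4 to 0.684 in SEA against MEA, and for FAS 0.201 to 0.351 in SEA against CTRL. Correlations with the neutrophil percentage that changed sign were those of TNFRSF10A in MEA (-0.131, -0.011 and -0.155 with 75th percentile, quantile and normexp scaling) and in SEA (0.036 with quantile normalization and 0.013 with the authors' values), and of RELT in MEA (-0.117 with the 75th percentile) and in SEA (-0.279, -0.258 and -0.054 with the 75th percentile, quantile and authors' values). Without a horse, they ranged from -0.319 to 0.21 and from -0.19 to 0.144 for TNFRSF10A in MEA and SEA, from -0.249 to 0.306 and from -0.118 to 0.133 for RELT, from -0.489 to 0.083 for FAS in MEA, and from -0.491 to 0.222 and from -0.759 to 0.588 for CASP10. The probe correlations stayed between 0.602 and 0.94 when a horse was left out. Scaling to the 75th percentile moved the median of all transcripts between SEA and MEA to -0.111.

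Replicate numbers did not pair the horses, since deviations of same-numbered horses correlated between -0.441 and 0.407. With the replicate number as a block, the members called were 5 in SEA, 2 in MEA and 0 between the diseases, the counts of all transcripts were 136 in MEA and 0 between the diseases by limma (637 at an unadjusted p below 0.05), and RELT in MEA was 0.27.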
